A study of Mus musculus with 81 samples.

Results

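The synaptojanins, the intersectins and their partners in synaptic vesicle endocytosis were followed as 10 genes of the 57010 gene identifiers in the count matrices. The list was drawn up by name. It held 3 genes that are triplicated in Ts65Dn mice (Synj1, Synj2 and Itsn1) and 7 disomic genes whose products work beside them (Itsn2, Dnm1, Sh3gl2, Snap91, Picalm, Amph and Eps15). All 10 passed the filter on low counts in every comparison.

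Neurons release transmitter by fusing vesicles with the presynaptic membrane and take that membrane back by endocytosis. Adaptors bind phosphoinositides in the membrane and gather cargo and clathrin into a coated pit, intersectins hold adaptors, actin regulators and dynamin together as scaffolds, and dynamin cuts the neck of the pit. Synaptojanins, recruited by endophilin, then remove phosphates from the phosphoinositides, and the coat falls off. SYNJ1 and ITSN1 lie on human chromosome 21 and have long been studied in Down syndrome and in endosome changes of early Alzheimer disease.

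The libraries were made from male Ts65Dn (Ts) mice and disomic (2N) controls at about 6 months of age (MO), out of 28 mice in all. Ts65Dn mice carry an extra small chromosome with parts of mouse chromosomes 16 and 17. The chromosome 17 part, which holds Synj2, is not orthologous to human chromosome 21. All the mice came from female Ts65Dn and male C57Bl/6J Eicher x C3H/HeSnJ F1 breeders, so the 2N controls also developed in trisomic dams. The dams were fed 1.1 g/kg choline chloride (normal diet) or 5.0 g/kg (supplemented diet) from conception to weaning, and every pup was given the 1.1 g/kg diet afterwards. CA1 pyramidal neurons (CA1 PNs), CA3 pyramidal neurons (CA3 PNs) and dentate granule cells (DGCs) were cut out in groups by laser capture microdissection from the same sections of each brain, which gave 1 bulk library per mouse and population. In such libraries fewer cells of a type and less RNA per cell cannot be told apart. On the normal diet there were 6 2N and 5 Ts libraries of CA1 PNs, and 6 and 6 of both CA3 PNs and DGCs. On the supplemented diet there were 7 2N and 9 Ts libraries of CA1 PNs, 7 and 7 of CA3 PNs, and 7 and 9 of DGCs.

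The 81 libraries held 358355 to 4744036 expected counts (median 1105133). Expected counts were scaled to CPM, counts relative to the size of the library, with edgeR's TMM factors. Markers were read as mean log2 CPM over a list. The 5 CA3 markers stood at 6.79 to 7.23 in CA3 PN libraries, the 6 dentate markers at 7.59 to 8.10 in DGC libraries, and the 6 CA1 markers at a median of 7.50 in CA1 PN libraries. In 10 of 27 CA1 PN libraries the 7 markers of the neighbouring CA2 field stood at 5.74 to 7.90, against 1.64 to 3.22 in the other 17, and in 2 of those 10 (2N mouse 17-21 and Ts mouse 16-272) the CA1 markers were as low as 2.55 and 2.48. The 10 libraries were 2 of 2N and 1 of Ts mice on the normal diet, and 3 of 2N and 4 of Ts mice on the supplemented diet. One of them went against its label. In the CA1 PN library of mouse 17-154, labelled 2N, the mean of 67 triplicated genes was 6.00, inside the Ts range of 5.70 to 6.06 and above the 5.15 to 5.49 of the other 2N libraries of CA1 PNs, while its CA3 PN and DGC libraries lay in the 2N range. It is named below as the library labelled 2N. Mouse 15-145 has a Ts label on its CA3 PN library and 2N labels on the other ones, and that library was grouped as 2N. In it the mean of the 67 triplicated genes, which do not include Synj1, Synj2 or Itsn1, was 5.43. In the Ts libraries of CA3 PNs this mean was 5.74 to 5.89. The Synj1 level of the 15-145 library was 1093 CPM, against 1514 to 1909 CPM in the Ts libraries of CA3 PNs. Oligodendrocyte markers stood at 4.64 to 5.83 in CA3 PNs, 3.40 to 5.24 in CA1 PNs and 2.86 to 4.22 in DGCs, and inhibitory markers at 3.74 to 4.99, 3.82 to 5.38 and 2.67 to 3.91, beside 8.39 to 10.6 for the excitatory list over all the libraries. The part of these other cells in the values below was not tested.

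The 3 triplicated genes are the ones on which the genotype results turn, and the 250 bases ahead of the most upstream annotated start of each are shown with their motifs. Synj1 (ENSMUSG00000022973) lies at chr16:90732969-90808396 on the minus strand, Itsn1 (ENSMUSG00000022957) at chr16:91526169-91717485 on the plus strand and Synj2 (ENSMUSG00000023805) at chr17:5991555-6094586 on the plus strand (GRCm39). The windows are chr16:90808397-90808646, chr16:91525919-91526168 and chr17:5991305-5991554, read from GRCm39 and written 5′ to 3′ on the strand of the gene. The Synj1 window also runs through an antisense long noncoding RNA, 4930404I05Rik. Capitals mark GC boxes (GGGCGG) and CCAAT boxes on either strand, so that CCGCCC and ATTGG are these motifs on the other strand.
Synj1: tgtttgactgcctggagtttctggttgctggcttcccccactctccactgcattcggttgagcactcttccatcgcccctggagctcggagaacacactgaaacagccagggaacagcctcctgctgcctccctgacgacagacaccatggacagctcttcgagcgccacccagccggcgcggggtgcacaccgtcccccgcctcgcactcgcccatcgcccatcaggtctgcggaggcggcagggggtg
Synj2: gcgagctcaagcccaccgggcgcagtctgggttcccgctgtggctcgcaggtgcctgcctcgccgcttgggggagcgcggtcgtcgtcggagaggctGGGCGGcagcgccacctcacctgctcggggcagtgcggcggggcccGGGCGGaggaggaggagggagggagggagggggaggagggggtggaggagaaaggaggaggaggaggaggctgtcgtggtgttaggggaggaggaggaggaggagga
Itsn1: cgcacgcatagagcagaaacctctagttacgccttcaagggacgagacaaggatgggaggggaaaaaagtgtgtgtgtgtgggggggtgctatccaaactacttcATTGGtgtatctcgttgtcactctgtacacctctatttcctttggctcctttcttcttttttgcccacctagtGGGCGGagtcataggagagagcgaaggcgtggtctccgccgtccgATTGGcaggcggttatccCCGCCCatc

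The Synj2 window held 20 CpG and 72.8% GC, the Synj1 window 16 CpG and 64.8% GC, and the Itsn1 window 13 CpG and 53.6% GC. Over the windows of 21664 protein-coding genes the median was 6 CpG (quartiles 2 and 13) and 51.2% GC (quartiles 44.4 and 58.4). All 3 were at or above the upper quartile in CpG. Synj2 held 2 GC boxes and Itsn1 held 2 GC boxes and 2 CCAAT boxes, motifs found in 29.9% and 36.2% of all windows. None of the windows of these 3 genes held the other letters searched on both strands, which were TATAAA (12.5% of windows), TGACGTCA (1.31%) and CACGTG (5.71%), and Synj1 held no motif at all. The disomic genes lie on other chromosomes: Itsn2 on chromosome 12, Dnm1 on 2, Sh3gl2 and Eps15 on 4, Snap91 on 9, Picalm on 7 and Amph on 13.

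To ask how trisomy changed the genes in each population, Ts and 2N libraries of 1 diet were compared. A gene was called at an unadjusted p under 0.05 in edgeR's quasi-likelihood test, the threshold the study used, and the Benjamini-Hochberg adjusted p over all genes tested is given as well. Of the 10 genes, 2 were called in CA1 PNs on the normal diet and 3 on the supplemented diet, 3 and 3 in CA3 PNs, and 2 and 3 in DGCs. Of all genes tested, 3.77% and 3.6% were called in CA1 PNs, 9.2% and 4.99% in CA3 PNs, and 8.5% and 7.6% in DGCs. Each of the calls was a triplicated gene higher in Ts, and of all genes 1.78% and 2.14% were called higher in CA1 PNs, 4.9% and 2.67% in CA3 PNs, and 4.55% and 3.95% in DGCs. At an adjusted p under 0.05 the numbers were 0 and 1 of 10 in CA1 PNs (0.00814% and 0.049% of all genes), 3 and 3 in CA3 PNs (0.662% and 0.249%) and 2 and 3 in DGCs (0.588% and 0.445%).

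Synj1, the synaptojanin that uncoats synaptic vesicles, was higher in Ts in all 3 populations. In CA3 PNs on the normal diet it ran from 1039 to 1202 CPM in 2N (median 1090) and from 1551 to 1909 CPM in Ts (median 1756), a log2 fold change (LFC) of 0.69 ± 0.05 (SE, adjusted p = 4.3e-12). With supplementation it ran from 987 to 1295 CPM in 2N (median 1122) and from 1514 to 1847 CPM in Ts (median 1766), an LFC of 0.58 ± 0.06 (adjusted p = 4.4e-08). No Ts library of CA3 PNs overlapped a 2N library. In DGCs, where the level was lower, the range was 312 to 381 CPM in 2N and 462 to 616 CPM in Ts on the normal diet, with medians of 364 and 547 CPM and an LFC of 0.60 ± 0.07 (adjusted p = 8.4e-09). In supplemented mice it was 319 to 417 CPM in 2N (median 375) and 510 to 599 CPM in Ts (median 541), an LFC of 0.56 ± 0.07 (adjusted p = 1.5e-09). Again no library of one genotype entered the range of the other.

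In CA1 PNs on the supplemented diet Synj1 ran from 671 to 860 CPM in 2N (median 702) and from 1015 to 1296 CPM in Ts (median 1146), an LFC of 0.64 ± 0.08 (adjusted p = 0.00025), again with no overlap. On the normal diet the 5 Ts libraries held 1029, 1116, 1139, 1143 and 1174 CPM. The 2N libraries held 699, 720, 720, 766, 777 and 1221 CPM, and the last was the library labelled 2N of mouse 17-154, above all the Ts libraries. The LFC was 0.44 ± 0.13 (adjusted p = 1.0), called at the unadjusted threshold, and 0.58 without that library, which gave the highest value of all libraries left out in turn.

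Synj2, the second synaptojanin, had a lower median TPM than Synj1 in all populations. On the normal diet the 5 Ts libraries of CA1 PNs held 158, 183, 186, 193 and 206 CPM and the 6 2N libraries 78.6, 101, 134, 135, 148 and 156 CPM. Every Ts library was above every 2N library, the library labelled 2N of mouse 17-154 included, and the LFC was 0.55 ± 0.15 (95% interval 0.23 to 0.86, adjusted p = 1.0). With supplementation the range was 74.5 to 144 CPM in 2N (median 114) and 122 to 206 CPM in Ts (median 175), with 8 of 9 Ts libraries above all 2N libraries and an LFC of 0.59 ± 0.13 (adjusted p = 0.091). Both were called at the unadjusted threshold. In CA3 PNs on the normal diet Synj2 ran from 63.2 to 113 CPM in 2N (median 109) and from 150 to 186 CPM in Ts (median 166). The LFC was 0.77 ± 0.10 (adjusted p = 2.4e-06). In supplemented mice it ran from 83.1 to 121 CPM in 2N (median 96.0) and from 122 to 204 CPM in Ts (median 158), an LFC of 0.75 ± 0.11 (adjusted p = 1.0e-05). The CA3 PN libraries of the 2 genotypes did not overlap on either diet.

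Itsn1, the triplicated intersectin scaffold, showed separated genotypes in CA3 PNs and DGCs and overlapping ones in CA1 PNs. In CA3 PNs on the normal diet it ran from 284 to 387 CPM in 2N (median 321) and from 465 to 500 CPM in Ts (median 475), an LFC of 0.58 ± 0.07 (adjusted p = 2.1e-07). Under supplementation it ran from 296 to 339 CPM in 2N (median 313) and from 448 to 517 CPM in Ts (median 477), an LFC of 0.58 ± 0.07 (adjusted p = 6.2e-08). The values of DGCs were of the same order. On the normal diet DGCs held 297 to 333 CPM in 2N (median 306) and 412 to 490 CPM in Ts (median 433), an LFC of 0.50 ± 0.07 (adjusted p = 1.35e-06). With supplementation they held 220 to 322 CPM in 2N (median 291) and 369 to 502 CPM in Ts (median 428), an LFC of 0.60 ± 0.07 (adjusted p = 3.1e-09).

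In CA1 PNs on the normal diet the 5 Ts libraries held 213, 218, 226, 226 and 331 CPM of Itsn1 and the 6 2N libraries 133, 136, 146, 158, 246 and 292 CPM. The 2 highest 2N libraries were those of mice 17-21 and 17-154 and the highest Ts library that of mouse 16-357, all 3 rich in CA2 markers. The LFC was 0.37 ± 0.22 (95% interval -0.09 to 0.84, adjusted p = 1.0), and Itsn1 was not called there. It was 0.24 without mouse 16-357 and 0.55 without mouse 17-154, the lowest and highest values of all libraries left out in turn. With supplementation it ran from 116 to 260 CPM in 2N (median 137) and from 168 to 378 CPM in Ts (median 225), an LFC of 0.70 ± 0.18 (adjusted p = 0.35, called at the unadjusted threshold), with 3 of 9 Ts libraries above all 2N libraries.

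**Figure D1:**
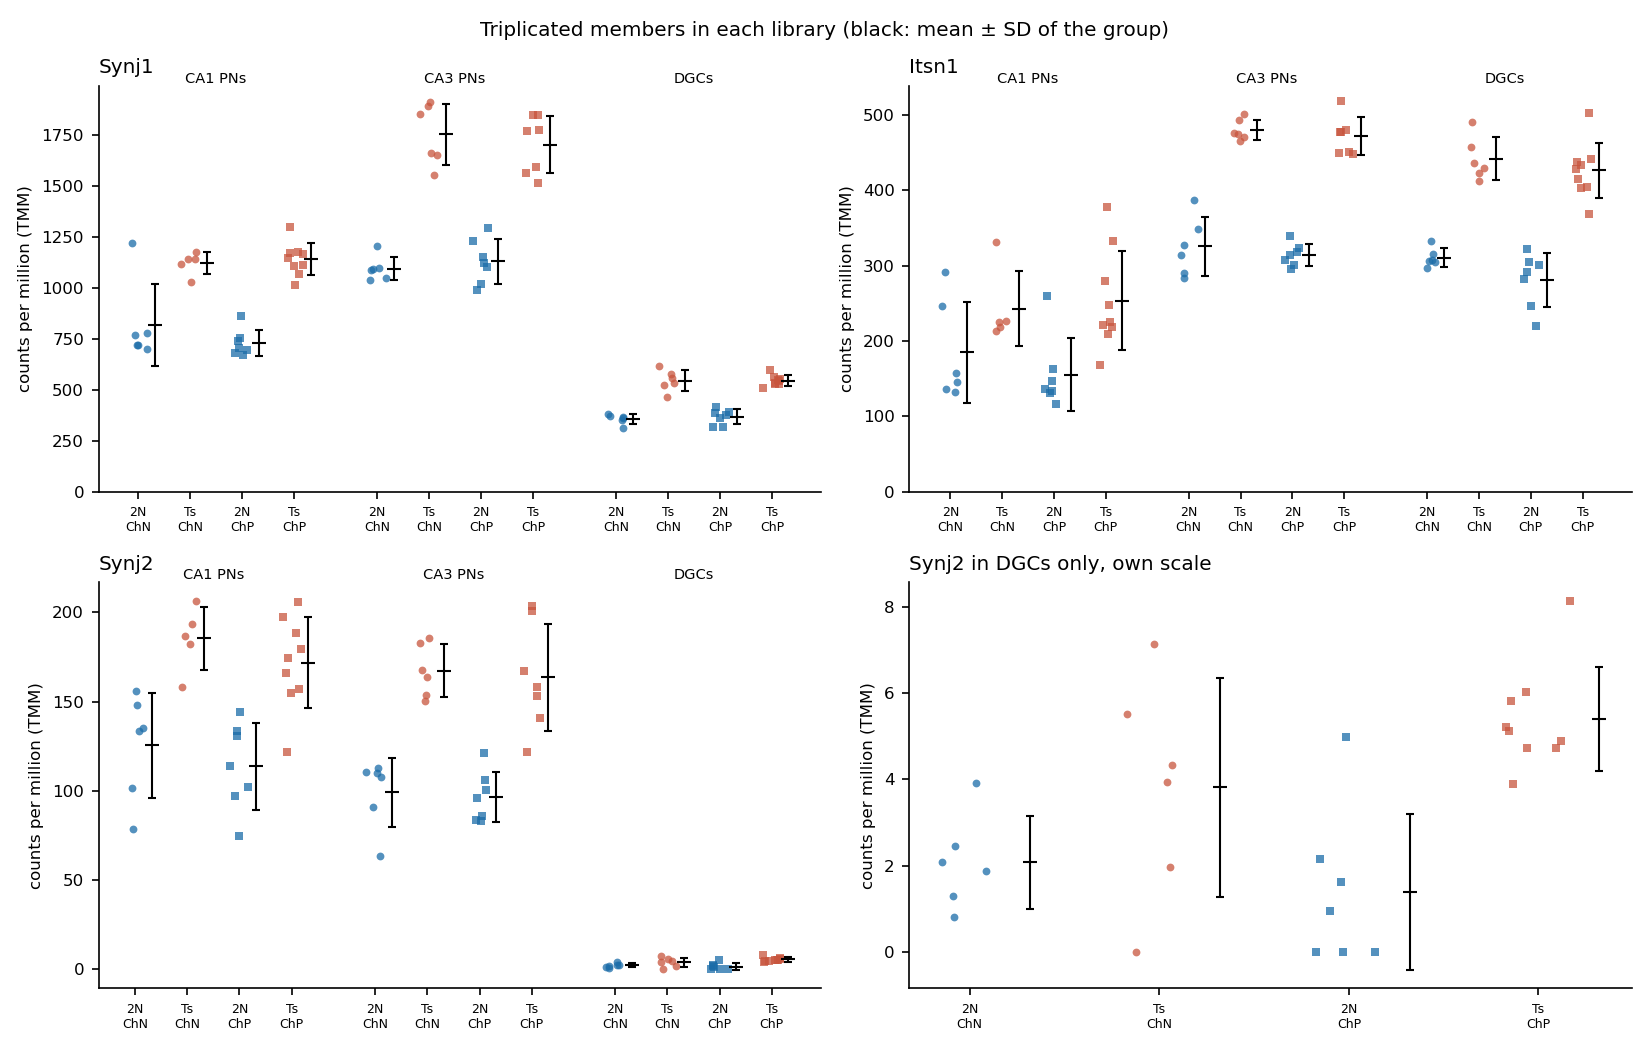
Synj1, Itsn1 and Synj2 in each library, in CPM on linear axes that each panel sets for itself, by population, genotype (2N blue, Ts red) and diet (ChN normal, circles; ChP supplemented, squares). Points are libraries and black bars the mean ± SD of the group; the last panel repeats Synj2 in DGCs, where the highest library reached 8.14 CPM. Ts points sit above 2N points for Synj1 in CA3 PNs and DGCs, and 1 library of CA1 PNs labelled 2N sits at 1221 CPM.

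An extra copy on top of 2 would give a ratio of 1.5, or 0.585 on the log2 scale. Beside this value, the 95% intervals of the LFC held it in 17 of the 18 comparisons of the 3 triplicated genes, from the narrowest (0.58 to 0.80 for Synj1 in CA3 PNs on the normal diet) to the wide ones of CA1 PNs (-0.09 to 0.84 for Itsn1 on the normal diet). The exception was Synj2 in DGCs on the supplemented diet. Over all triplicated protein-coding genes tested, these 3 included, the median LFC was 0.42 and 0.48 in CA1 PNs on the normal and supplemented diet. It was 0.57 and 0.55 in CA3 PNs and 0.58 and 0.58 in DGCs. The normal diet value of CA1 PNs included the library labelled 2N whose triplicated genes stood in the Ts range. The part of that library in the median was not tested. The LFC of Synj1 in CA3 PNs and DGCs was 0.56 to 0.69.

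In DGCs Synj2 was counted in at most a few reads. The 6 2N libraries on the normal diet summed to 13 reads (exact Poisson interval 6.92 to 22.2, counting error only), and the 6 Ts libraries to 30 reads (20.2 to 42.8). On the supplemented diet the 7 2N libraries summed to 6 reads (2.20 to 13.1), with 3 of 7 at 0, and the 9 Ts libraries to 48 reads (35.4 to 63.6), with none at 0. Pooled over a group, this came to 2.06 CPM in 2N and 4.19 CPM in Ts on the normal diet, and to 1.11 CPM in 2N and 5.73 CPM in Ts on the supplemented diet. By library, the range on the supplemented diet was 0 to 4.99 CPM in 2N (median 0.94) and 3.90 to 8.14 CPM in Ts (median 5.12), with 5 of 9 Ts libraries above all 2N libraries. The LFC was 2.23 ± 0.57 (95% interval 1.09 to 3.36, adjusted p = 0.044). On the normal diet it was 0.97 ± 0.54 (-0.12 to 2.05, adjusted p = 0.67) and not called. In the same comparison on the supplemented diet the list of 6 inhibitory neuron markers stood at 2.67 to 3.30 in 2N (median 3.19) and 3.31 to 3.89 in Ts (median 3.65), with no overlap. The 5 CA3 markers stood at 3.04 to 3.66 in 2N (median 3.42) and 3.46 to 4.09 in Ts (median 3.69), and oligodendrocyte markers at 2.86 to 3.99 (median 3.73) and 3.62 to 4.22 (median 4.04), both with overlap. Also higher in Ts, with overlap, were the medians of astrocyte (4.03 and 4.40), microglia (2.31 and 2.59), CA2 (3.45 and 3.56) and vascular markers (2.11 and 2.24). Those of CA1, dentate and excitatory markers were lower in Ts. The part of other cells in the Synj2 value was not tested. Synj2 was higher in the PNs by far, where the pooled level was 89.1 to 185 CPM.

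The 7 disomic genes were called in none of the 6 genotype comparisons at an unadjusted p under 0.05 with edgeR, and the smallest of the 42 unadjusted p-values was 0.054. Their LFC ran from -0.08 to 0.14 in CA3 PNs, from -0.17 to 0.17 in DGCs and from -0.25 to 0.17 in CA1 PNs. The 95% intervals reached from -0.28 to 0.31 in CA3 PNs, from -0.37 to 0.34 in DGCs and from -0.57 to 0.56 in CA1 PNs, and none of the 42 held 0.585. Itsn2, the disomic intersectin, had medians in CA3 PNs on the normal diet of 110 CPM in 2N (range 101 to 134) and 103 CPM in Ts (79.3 to 150). Dnm1, the neuronal dynamin, had medians of 2982 CPM (2893 to 3324) and 3071 CPM (2774 to 3239) there. In both genes the ranges of the genotypes overlapped, as they did for all 7 in every comparison.

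The ratio of a triplicated gene's counts to those of its disomic partner within a library had a higher mean in Ts in all 3 populations on both diets. The values below are those of the normal diet. In CA1 PNs the Itsn1 to Itsn2 ratio was 1.21 ± 0.57 in 2N and 1.73 ± 0.52 in Ts, with overlap. The Synj1 to Dnm1 ratio there was 0.645 ± 0.11 and 0.943 ± 0.16, also with overlap. The Itsn1 to Itsn2 ratio in CA3 PNs on the normal diet was 2.89 ± 0.40 (SD, n = 6) in 2N and 4.62 ± 0.89 (n = 6) in Ts, and in DGCs 2.41 ± 0.28 (n = 6) and 3.84 ± 0.52 (n = 6). The Synj1 to Dnm1 ratio was 0.358 ± 0.023 and 0.580 ± 0.070 in CA3 PNs, and 0.522 ± 0.059 and 0.771 ± 0.12 in DGCs. The ratio of the 2 triplicated genes Synj1 and Itsn1 was 3.40 ± 0.41 and 3.65 ± 0.28 in CA3 PNs, and 1.15 ± 0.076 and 1.24 ± 0.14 in DGCs. The first 2 ratios did not overlap between genotypes in DGCs, and in CA3 PNs the Synj1 to Dnm1 ratio did not. They carry the genotype values above in another form and were not tested again.

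**Figure D2:**
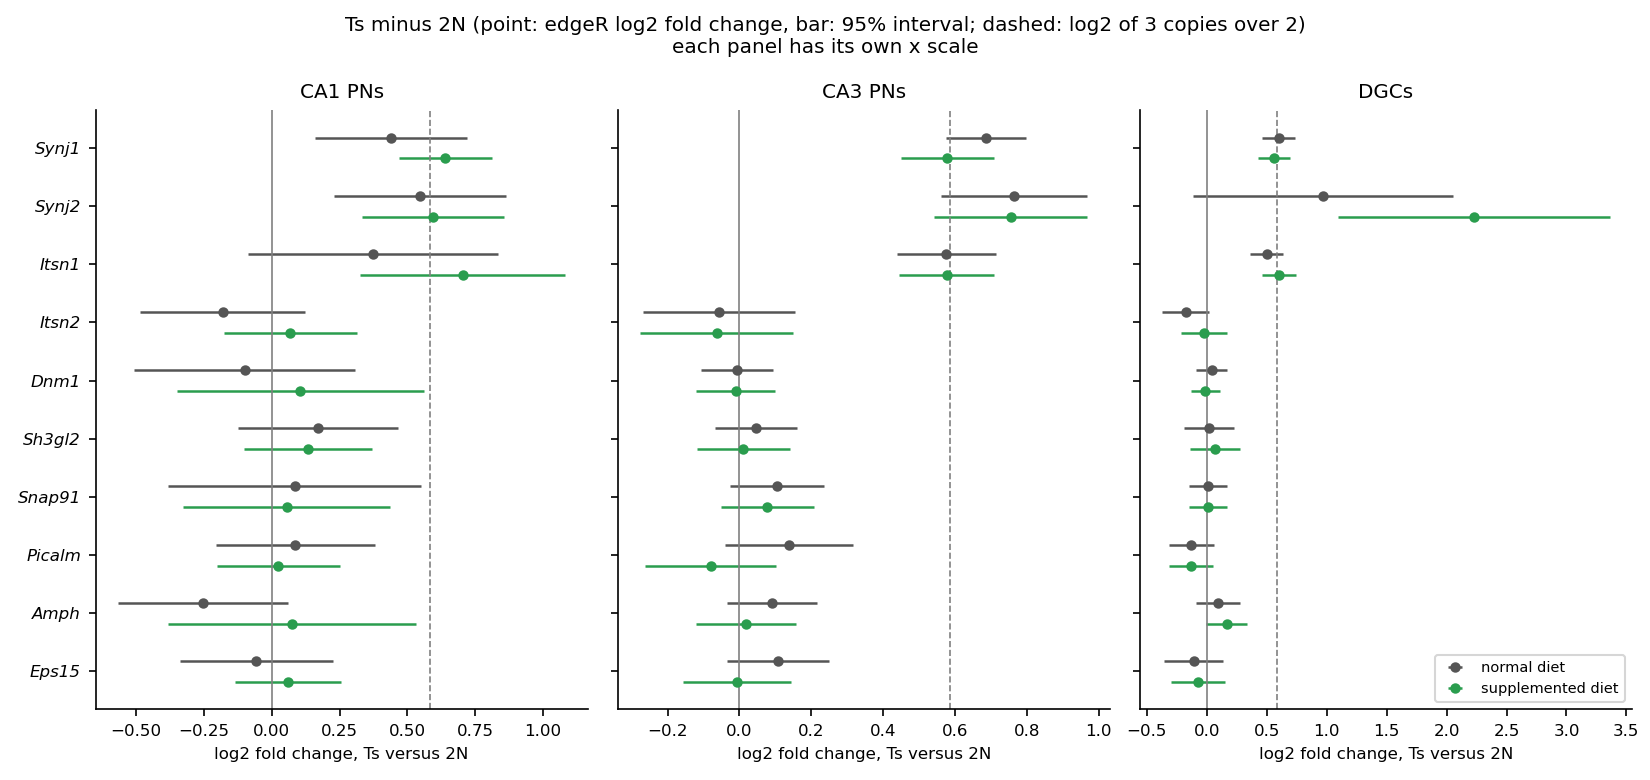
Log2 fold change of Ts over 2N for the 10 genes by population and diet (normal dark, supplemented green); points are edgeR estimates, bars 95% intervals, and each panel has its own x scale. The solid line marks 0 and the dashed line 0.585, the log2 of 3 copies over 2. Triplicated genes (top 3 rows) lie to the right of 0 and the bars of the disomic genes do not reach the dashed line.

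Whether the genotype difference itself differed between populations was tested in 1 fit per diet over all 3. On the normal diet 1, 1 and 0 of the 10 genes were called for CA1 PNs against CA3 PNs, CA1 PNs against DGCs and CA3 PNs against DGCs (4.22%, 5.51% and 5.18% of all genes). On the supplemented diet 0, 1 and 1 were called (4.27%, 4.95% and 4.42%). The calls on the supplemented diet were Synj2, whose LFC was less in CA1 PNs than in DGCs by -1.66 ± 0.46 (adjusted p = 0.77) and in CA3 PNs less than in DGCs by -1.50 ± 0.46 (adjusted p = 1.0), both resting on the few reads of DGCs. Those on the normal diet were Amph, the amphiphysin that senses membrane curvature, with differences of -0.32 ± 0.14 (adjusted p = 1.0) against CA3 PNs and -0.34 ± 0.15 (adjusted p = 0.87) against DGCs. For Amph no population had a called genotype difference by itself. The difference for Synj1 between CA1 PNs and CA3 PNs on the normal diet was -0.22 ± 0.12 (95% interval -0.47 to 0.02, not called). For Itsn1 no such difference was called, with intervals from -0.55 to 0.47 over the 6 tests. The normal diet fit kept the CA1 PN library labelled 2N whose triplicated genes stood in the Ts range. Without that library the Synj1 LFC in CA1 PNs was higher, as given above. The part of that library in the differences on this diet was not tested.

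The libraries of CA1 PNs rich in CA2 markers stood apart in several of the genes, given here as ranges without a test. Dnm1 was 1147 to 2354 CPM (median 1753) in the 10 rich libraries and 946 to 1301 CPM (median 1085) in the other 17. Snap91, the clathrin adaptor AP180, was 280 to 491 CPM against 216 to 292 CPM, and Amph 213 to 445 CPM against 173 to 240 CPM. All 3 were also higher in CA3 PNs than in CA1 PNs. The 10 rich libraries stood higher in the 5 CA3 markers as well, at 4.21 to 6.56 against 1.59 to 3.58 in the other 17. CA2 and CA3 content can therefore not be told apart in these levels. Itsn1 in Ts was 247 to 378 CPM in the 5 rich libraries against 168 to 226 CPM in the other 9. Synj2 went the other way in Ts, with 122 to 166 CPM in the rich libraries and 175 to 206 CPM in the others. The medians of Picalm were 121 and 133 CPM.

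Without the 10 rich libraries, the LFC of the triplicated genes in CA1 PNs on the normal diet was 0.58 ± 0.09 for Synj1 (adjusted p = 0.00021), 0.60 ± 0.11 for Itsn1 (adjusted p = 0.0042) and 0.55 ± 0.12 for Synj2 (adjusted p = 0.026), all called, in place of 0 of 3 at the adjusted threshold. Amph was then called at an unadjusted p (-0.23 ± 0.11, adjusted p = 0.65). The rich libraries on this diet were those of 2N mice 17-21 and 17-154 and Ts mouse 16-357. That of mouse 17-154 also went against its label, and the parts of CA2 content and label in these changes were not tested. Synj1 was 1221 CPM in the library of mouse 17-154 and 766 CPM in that of mouse 17-21, and Itsn1 was 292 and 246 CPM. The LFCs of Synj1 and Itsn1 without the library of mouse 17-154 alone are given above. On the supplemented diet the values without the rich libraries were 0.67 ± 0.07 for Synj1, 0.67 ± 0.11 for Itsn1 and 0.56 ± 0.11 for Synj2 (adjusted p = 1.8e-07, 0.00060 and 0.0099). Leaving out only the 2N mice 17-21 and 17-154 gave 0.61 ± 0.10 for Synj1 (adjusted p = 0.014) and 0.75 ± 0.14 for Itsn1 (adjusted p = 0.032). Synj2 was 0.50 ± 0.13 (adjusted p = 0.26), called only at the unadjusted threshold. This fit kept the Ts library of mouse 16-357, which was rich in CA2 markers and the highest Ts library in Itsn1 (331 CPM). Snap91 was then called at an unadjusted p (0.37 ± 0.16, adjusted p = 0.73).

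**Figure D3:**
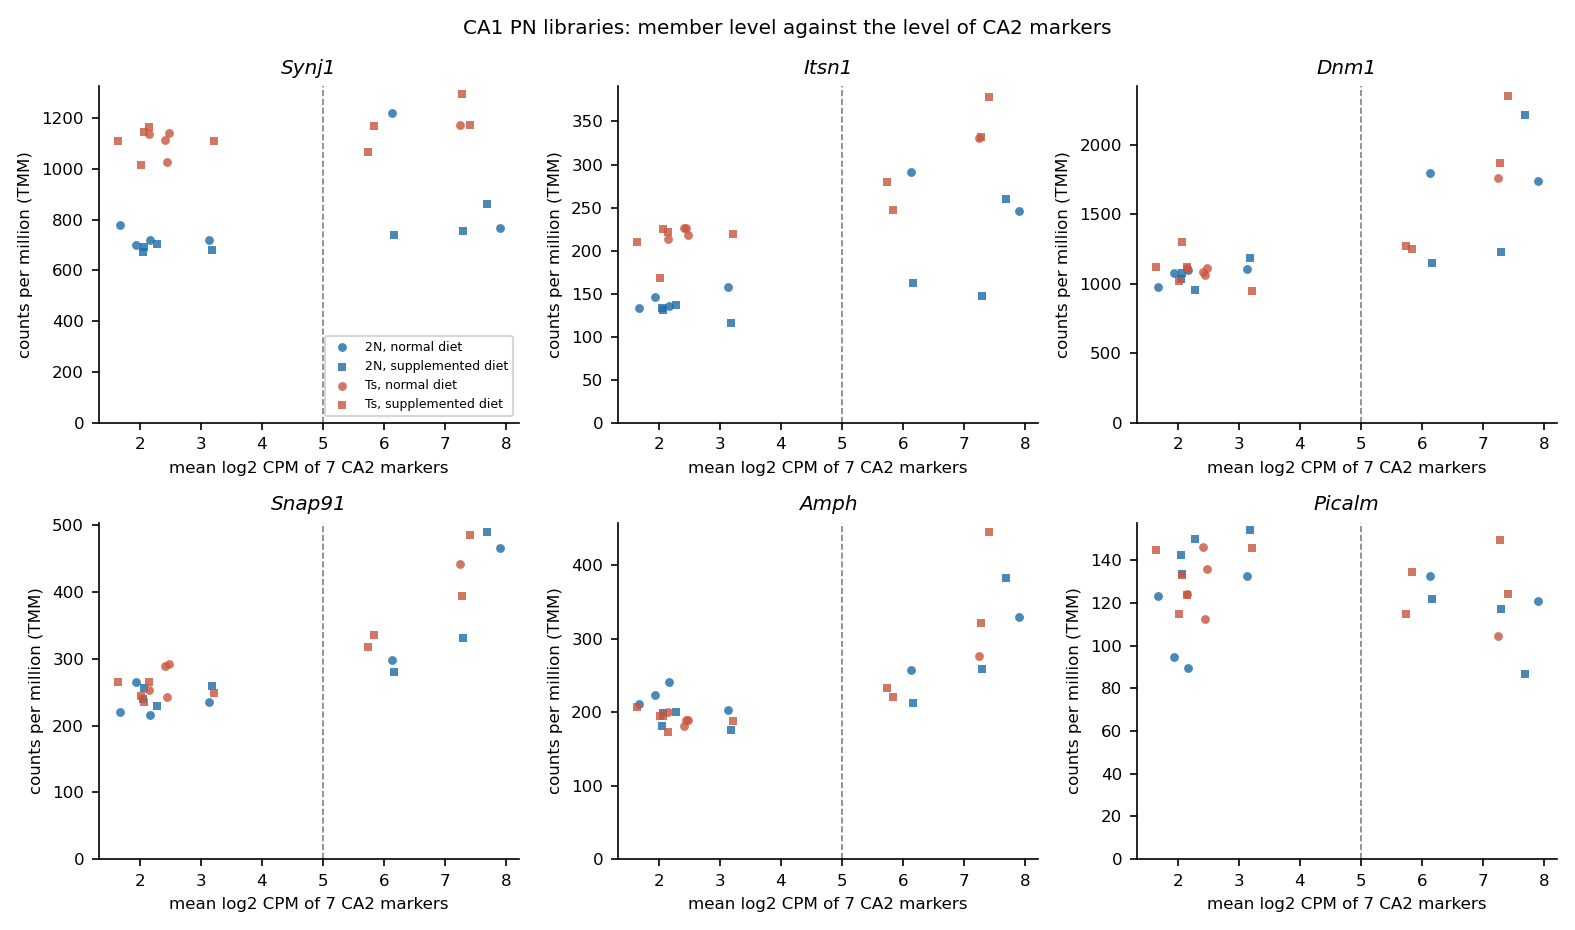
Level of Synj1, Itsn1, Dnm1, Snap91, Amph and Picalm (CPM, linear axes) in the 27 CA1 PN libraries against the mean log2 CPM of 7 CA2 markers in the same library. Colours give genotype and shapes diet, and the dashed line at 5 parts the 10 rich libraries from the other 17. Dnm1, Snap91 and Amph reach their highest levels to the right of the line.

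To ask whether the maternal diet changed the genes, supplemented and normal diet were compared within a genotype, with all 4 groups of a population in 1 fit. None of the 10 genes was called at an unadjusted p under 0.05 in edgeR in Ts or 2N mice of any population, nor for the interaction of genotype and diet, and none at an adjusted p. Among all genes, 3.05% in Ts, 3.27% in 2N and 3.22% for the interaction were called in CA1 PNs, 4.19%, 4.9% and 4.87% in CA3 PNs, and 3.81%, 5.82% and 3.97% in DGCs. The intervals were narrowest in CA3 PNs. There the diet difference of any of the 10 genes lay between -0.33 and 0.24 in both genotypes, and for Synj1 it was 0.06 ± 0.06 (95% interval -0.06 to 0.18) in 2N and -0.04 ± 0.06 (-0.16 to 0.08) in Ts. In CA1 PNs the intervals ran from -0.68 to 0.64. In DGCs they ran from -0.33 to 0.37 for the 9 genes other than Synj2.

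The smallest unadjusted p for the diet was that of Itsn1 in 2N DGCs, 0.057, with an LFC of -0.14 ± 0.08 (95% interval -0.29 to 0.00). The interaction was 1.28 ± 0.84 for Synj2 in DGCs (95% interval -0.39 to 2.95), on the reads given above. For Synj1 it was 0.17 ± 0.14 in CA1 PNs (-0.11 to 0.45), -0.10 ± 0.09 in CA3 PNs (-0.27 to 0.07) and -0.04 ± 0.10 in DGCs (-0.23 to 0.15). With mice 17-21 and 17-154 left out, the value in CA1 PNs was 0.03 ± 0.12 (-0.21 to 0.27). An effect of diet as large as that of an extra copy (0.585) lay outside the intervals of all 10 genes in CA3 PNs, while in CA1 PNs and for Synj2 in DGCs it lay inside some. Picalm, the adaptor CALM that sizes clathrin pits, was called in CA1 PNs of 2N mice when the 10 libraries rich in CA2 markers were left out (0.39 ± 0.13, adjusted p = 0.65), as was Amph (-0.22 ± 0.11, adjusted p = 0.86). The interaction for Picalm was then -0.36 ± 0.18 and called. With the CA2 marker level as a covariate Synj1 (-0.17 ± 0.08) and Itsn1 (-0.30 ± 0.11) were called instead in these 2N mice (adjusted p = 1.0 for both). The covariate fit kept the normal diet library labelled 2N of mouse 17-154, whose triplicated genes stood in the Ts range. With mice 17-21 and 17-154 left out and no covariate, Synj1 was -0.006 ± 0.090 and Itsn1 0.11 ± 0.20, neither called.

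**Figure D4:**
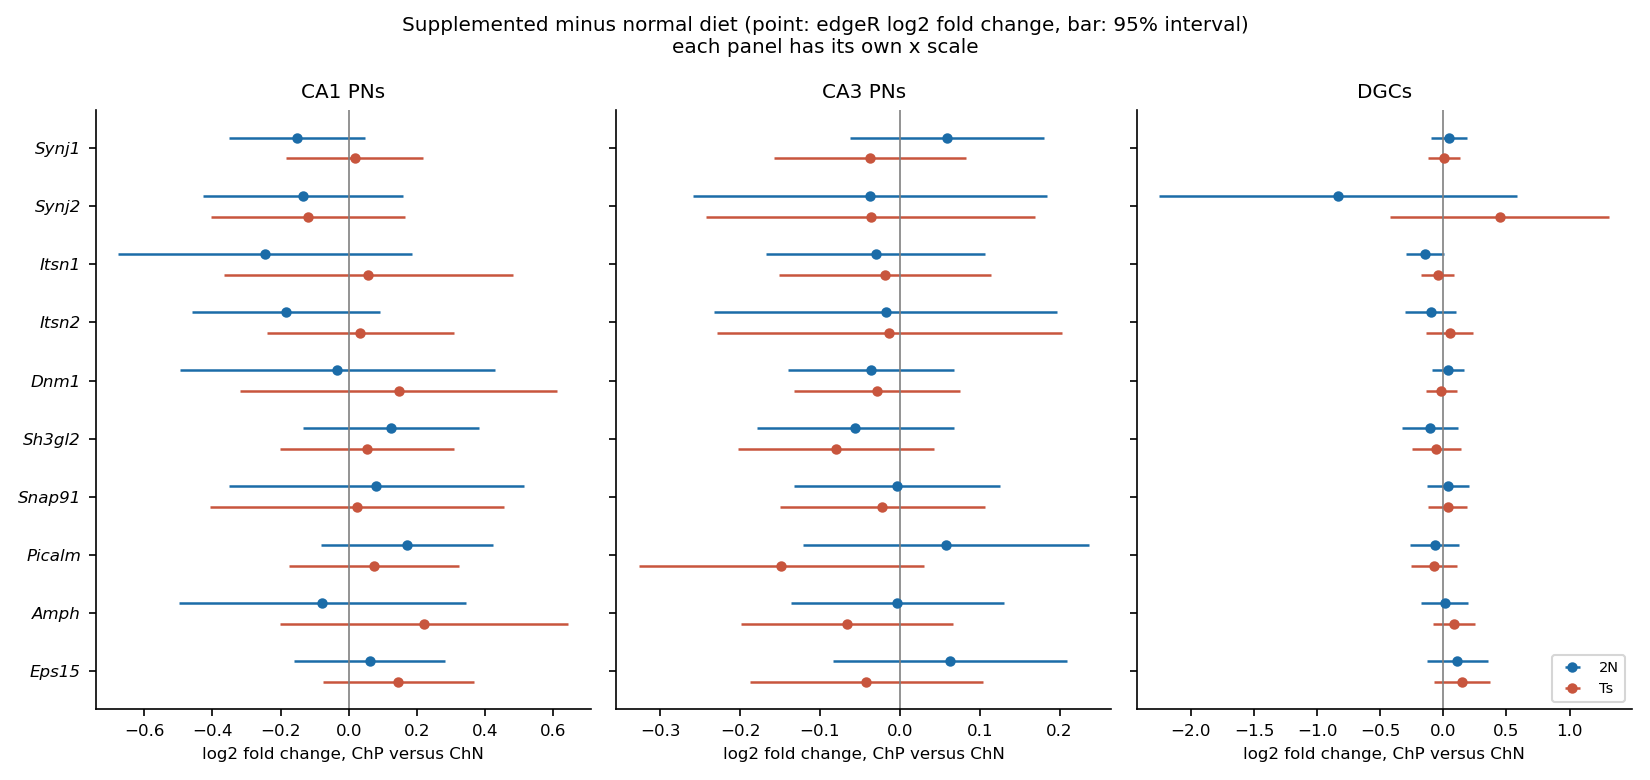
Log2 fold change of supplemented over normal diet for the 10 genes by population and genotype (2N blue, Ts red); points are edgeR estimates, bars 95% intervals, and each panel has its own x scale. Every bar crosses the line at 0, and the widest is that of Synj2 in DGCs of 2N mice.

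More of the genes were called between populations than between genotypes. Populations were compared in each of the 4 sets of mice (2N and Ts, normal and supplemented diet), with a gene called at an adjusted p under 0.05. Of the 10 genes 8, 7, 7 and 8 were called for CA1 PNs against CA3 PNs in 2N normal, 2N supplemented, Ts normal and Ts supplemented mice (23.3%, 22.9%, 25.3% and 24.5% of all genes). Between CA1 PNs and DGCs 9, 8, 8 and 9 were called (34.3%, 31.8%, 33.7% and 39.3%), and between CA3 PNs and DGCs 7, 7, 7 and 7 (43.7%, 40.4%, 44.5% and 44.2%). All 7 of the last were higher in CA3 PNs. The median LFC of the 10 genes between CA3 PNs and DGCs in 2N mice on the normal diet was 1.67, against -0.04 over all genes. Values below are LFCs in the order of the 4 sets, and differences between the sets were tested only as genotype by population.

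Both synaptojanins were lowest in DGCs. Synj1 was higher in CA3 PNs than in DGCs by an LFC of 1.59 ± 0.10, 1.61 ± 0.09, 1.67 ± 0.07 and 1.62 ± 0.06 (largest adjusted p = 2.1e-15), and CA1 PNs lay between them, 1.17, 0.96, 1.03 and 1.05 above DGCs (largest adjusted p = 1.0e-11) and below CA3 PNs with -0.42, -0.65, -0.65 and -0.58 (largest adjusted p = 0.0018). Synj2 was higher in CA1 PNs than in DGCs by 5.95 ± 0.26, 6.61 ± 0.30, 5.52 ± 0.19 and 4.97 ± 0.15 (largest adjusted p = 3.0e-20). As a ratio of mean CPM over both diets, CA1 PNs held 69.9 times the Synj2 of DGCs in 2N and 37.1 times in Ts. Between CA1 PNs and CA3 PNs Synj2 was not called (0.34, 0.23, 0.14 and 0.07, adjusted p = 0.090, 0.30, 0.42 and 0.69). The first was called with the mouse as a block (0.34), and both 2N values were called without the CA2-rich libraries (0.39 and 0.40, adjusted p = 0.024 and 0.029).

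The intersectins had opposite orders in CA1 PNs and CA3 PNs. Against CA3 PNs, Itsn1 was lower in CA1 PNs, with LFCs of -0.80 ± 0.15, -1.03 ± 0.12, -0.98 ± 0.09 and -0.89 ± 0.10 (largest adjusted p = 0.00030), and lower than in DGCs, with -0.76, -0.88, -0.87 and -0.76 (largest adjusted p = 0.00034). Between CA3 PNs and DGCs it was not called (0.04 to 0.15, with intervals from -0.27 to 0.38). Itsn2 was higher in CA1 PNs than in CA3 PNs by 0.51 ± 0.12, 0.32 ± 0.12, 0.40 ± 0.12 and 0.45 ± 0.10 (adjusted p = 0.0018, 0.057, 0.0092 and 0.00056), where the second was called with the mouse as a block (0.32). Between CA1 PNs and DGCs Itsn2 differed by 0.28, 0.20, 0.29 and 0.28 (adjusted p = 0.072, 0.26, 0.053 and 0.017). The third was called with the block (0.29), and all 4 were called without the CA2-rich libraries (0.40, 0.36, 0.34 and 0.37).

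Dynamin, endophilin, AP180 and amphiphysin all had the order CA3 PNs, CA1 PNs, DGCs. Sh3gl2, the endophilin that brings synaptojanin to the vesicle neck, was the steepest, with 537.8 to 673 CPM in the 13 2N libraries of CA3 PNs, 155.7 to 225 CPM in CA1 PNs and 76.7 to 142 CPM in DGCs. Its LFC between CA3 PNs and DGCs was 2.52 ± 0.11, 2.57 ± 0.11, 2.56 ± 0.10 and 2.53 ± 0.10 (largest adjusted p = 1.4e-20), a ratio of mean CPM of 5.86 in 2N. Dnm1 was 2.12, 2.06, 2.08 and 2.06 higher in CA3 PNs than in DGCs (largest adjusted p = 1.5e-11), and its LFC for CA1 PNs over CA3 PNs was -1.23, -1.25, -1.31 and -1.12 (largest adjusted p = 1.2e-06). Amph was 1.75, 1.74, 1.75 and 1.59 higher in CA3 PNs than in DGCs (largest adjusted p = 1.5e-09), and Snap91 1.49, 1.44, 1.58 and 1.52 (largest adjusted p = 1.1e-09). The difference of Snap91 between CA1 PNs and DGCs was smaller, at 0.46, 0.48, 0.55 and 0.55 (adjusted p = 0.012, 0.0016, 0.00012 and 5.9e-05), and without the CA1 PN libraries rich in CA2 markers the 2N values were 0.20 and 0.21 and no longer called (adjusted p = 0.091 and 0.11). That of Amph in Ts mice on the supplemented diet, 0.54, was 0.19 without them (adjusted p = 0.054).

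Eps15, a scaffold of the pit rim that binds intersectin and AP-2, had its highest median CPM in CA1 PNs in each of the 4 sets of mice. In 2N mice on the normal diet it ran from 238 to 417 CPM in CA1 PNs (median 373), from 259 to 306 CPM in CA3 PNs (median 295) and from 58.3 to 86.1 CPM in DGCs (median 72.1). It was higher in CA1 PNs than in DGCs by 2.31, 2.25, 2.38 and 2.39 (largest adjusted p = 5.2e-18) and than in CA3 PNs by 0.30, 0.29, 0.16 and 0.36 (adjusted p = 0.041, 0.021, 0.22 and 0.00095). The first of these was not called with the mouse as a block (0.29) or without the CA2-rich libraries (0.22, adjusted p = 0.095). Picalm had medians of 122, 126 and 153 CPM in the 3 populations of 2N mice on the normal diet. It was called only between CA1 PNs and DGCs in these mice (-0.37 ± 0.12, adjusted p = 0.014).

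**Figure D5:**
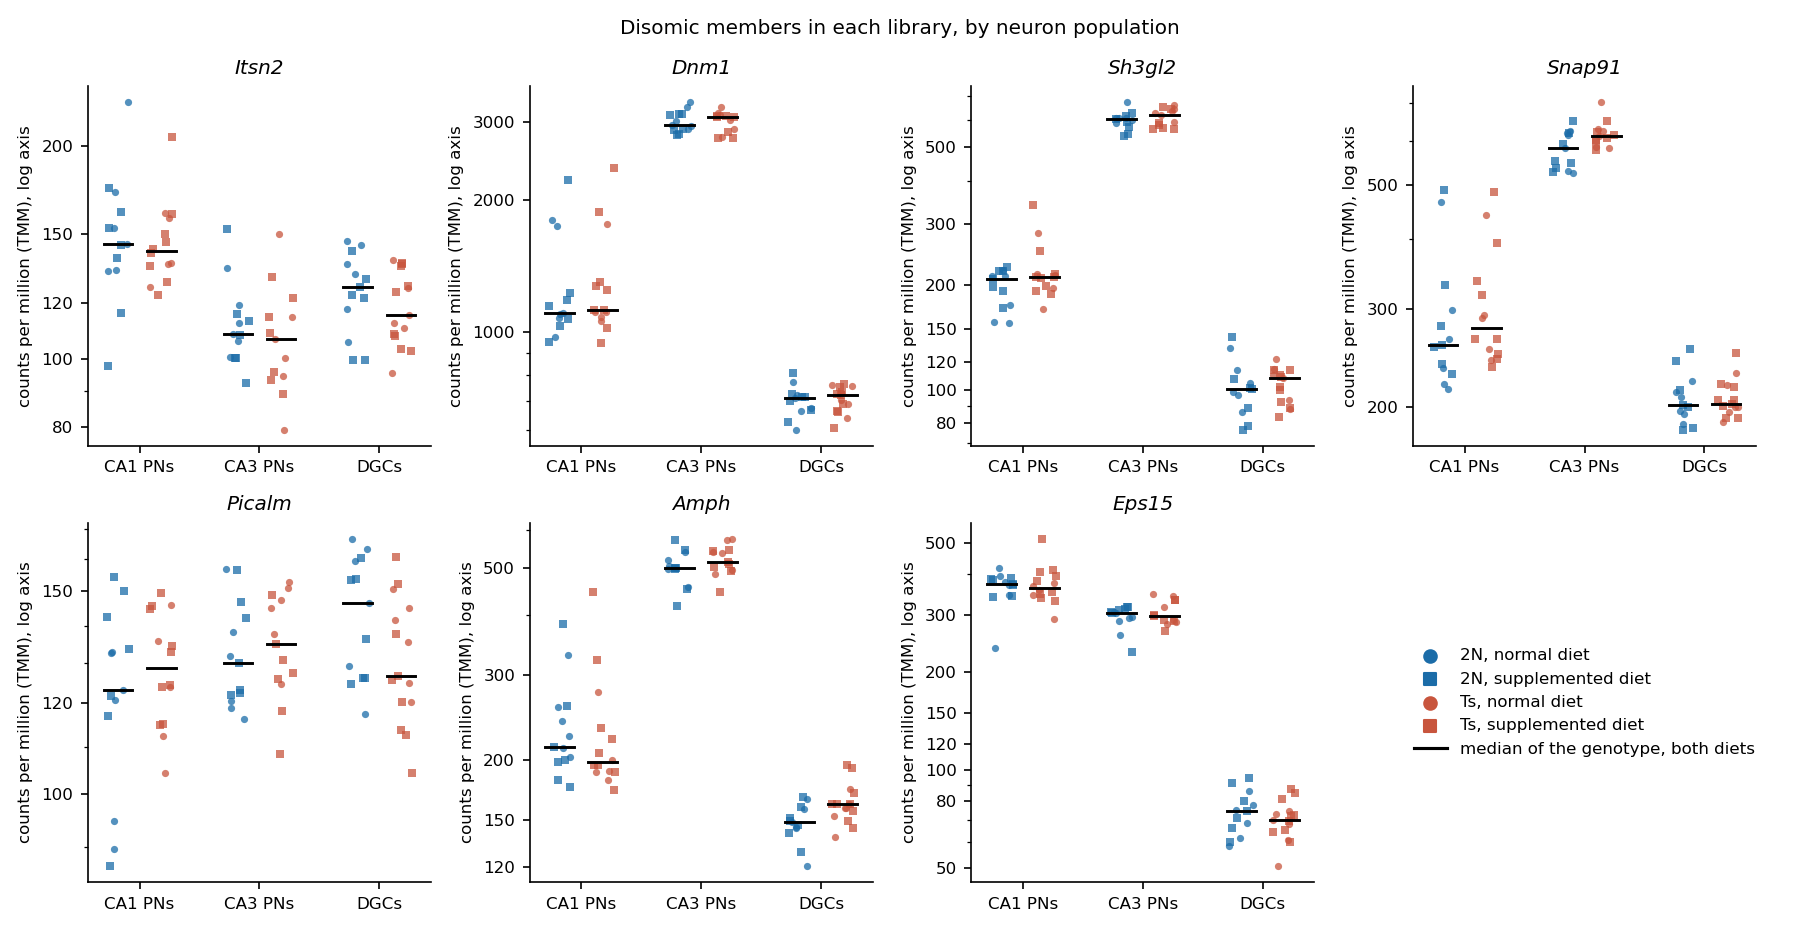
The 7 disomic genes in each library by population, in CPM on a log axis that each panel sets for itself; colours give genotype, shapes diet, and the black line is the median of a genotype over both diets. Dnm1, Sh3gl2, Snap91 and Amph step down from CA3 PNs to CA1 PNs to DGCs, Eps15 drops in DGCs alone, and Itsn2 and Picalm stay within a narrow range.

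To compare levels between genes, TPM values, which allow for transcript length, were used. Dnm1 had the highest median TPM of the 10 in all populations, at 361 TPM in CA1 PNs, 1429 TPM in CA3 PNs and 294 TPM in DGCs of 2N mice. In 2N CA3 PNs Sh3gl2 (390 TPM) and Synj1 (309 TPM) followed, and in Ts CA3 PNs Synj1 (489 TPM) stood before Sh3gl2 (352 TPM). The ranges of those 2 overlapped in both genotypes (143 to 490 TPM and 117 to 461 TPM in 2N). In 2N DGCs Itsn1 (109 TPM) and Synj1 (102 TPM) came next after Dnm1, with overlapping ranges of 58.8 to 169 and 73.2 to 181 TPM. Synj2 was last in DGCs of both genotypes, at 0.61 TPM in 2N and 1.56 TPM in Ts, and Picalm, Itsn2 and Synj2 shared the lowest places in PNs.

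The genes whose pattern over the 12 groups of population, genotype and diet was most like that of each triplicated gene were found by Pearson's r of mean log2 CPM, over 9103 genes. The 12 group means share mice and the step between populations, so r is a description only. For Synj1 these were Atp5po (r = 0.985), Zdhhc14 (0.984) and Slc3a2 (0.980), of which the first 2 are triplicated. Atp5po lies on the strand opposite Itsn1 and overlaps it. For Itsn1 they were Hlcs (0.968), Tulp4 (0.955) and Snx9 (0.946), all triplicated, and for Synj2 they were L1cam, Dner and Dpysl3 (0.994 each), all disomic and low in DGCs.

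The other endocytosis genes, a list of 58 set by role, were compared in the same fits. Between Ts and 2N, 0 were called higher and 1 lower in CA1 PNs on the normal diet (54 tested), 2 and 0 on the supplemented diet (55), 4 and 0 (57) and 2 and 2 (58) in CA3 PNs, and 3 and 1 (54) and 3 and 1 (56) in DGCs. In the same order, 3.77%, 3.6%, 9.2%, 4.99%, 8.5% and 7.6% of all genes tested were called. The median LFC of the list was between -0.01 and 0.05. Cttn, the actin regulator cortactin, was the one call at an adjusted p, higher in Ts CA3 PNs on the normal diet (0.36 ± 0.09, adjusted p = 0.022). Snx9, a triplicated sorting nexin that binds dynamin, was higher on the supplemented diet in CA1 PNs (1.26 ± 0.39, adjusted p = 0.78) and CA3 PNs (0.60 ± 0.24, adjusted p = 0.76). Pacsin2, a syndapin that bends membranes, was higher in Ts DGCs on both diets (0.35 ± 0.11 and 0.31 ± 0.10, adjusted p = 0.22 for both), and Inpp5f, another phosphoinositide phosphatase, was higher there on the supplemented diet (0.52 ± 0.14, adjusted p = 0.064).

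None of the remaining genes named by the same rule passed after adjustment. Dnm3, a dynamin, was lower in supplemented Ts CA3 PNs (-0.34 ± 0.10, adjusted p = 0.29), as was the phosphatase gene Sacm1l (-0.23 ± 0.11), and Necap2 was higher (0.63 ± 0.26, adjusted p = 0.80). Sh3gl3, an endophilin, was lower in Ts CA1 PNs on the normal diet (-1.15 ± 0.53), and Numb was higher there on the supplemented diet (0.41 ± 0.19). In DGCs, Sh3glb2 was higher (0.22 ± 0.10) and Ehd2 lower (-1.33 ± 0.60) on the normal diet, and Ehd3 was lower on the supplemented diet (-0.16 ± 0.08). By diet at most 2 of the list were called in any comparison, none at an adjusted p. Cttn fell with supplementation in Ts CA3 PNs (-0.21 ± 0.09) and rose in 2N (0.23 ± 0.10), an interaction of -0.44 ± 0.13 (adjusted p = 0.98).

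Between populations the coat genes had the direction of Dnm1. All 8 clathrin and AP-2 genes were higher in CA3 PNs than in DGCs in all 4 sets of mice, with a median LFC of 1.06 in 2N mice on the normal diet. Ap2m1, a subunit of AP-2, was higher by 1.43 ± 0.11 there, and Aak1, the kinase that acts on it, by 1.37 ± 0.10. Of the whole list, 30 were higher in CA3 PNs and 10 in DGCs in 2N mice on the normal diet (57 tested), 28 and 10 in 2N supplemented (56), 32 and 12 in Ts normal (57) and 31 and 10 in Ts supplemented mice (58). Of all genes tested, 43.7%, 40.4%, 44.5% and 44.2% were called in these sets, 3283 higher and 3266 lower in the first. Of the 17 curvature and fission genes in the list, 6 were higher and 5 lower in 2N mice on the normal diet. Pacsin2 was lower in CA3 PNs than in DGCs, with LFCs of -2.70, -2.86, -3.05 and -2.92 and so was Ehd1, which acts in endosomal recycling, with -1.53 and -1.55 in the 2 sets that named it. Ston2, an adaptor for synaptotagmin, was lower in CA1 PNs than in DGCs, with -3.79, -4.28 and -4.56 in the 3 sets that named it. Pip5k1b, a kinase that makes the phosphoinositide which synaptojanins break down, was higher in CA1 PNs than in CA3 PNs by 2.27, 2.16, 2.08 and 2.13.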

How the data were processed

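RNA-seq of laser-captured neurons was analysed from 1 file per library and 3 matrices, whose 81 columns were equal to the files. Per the labels and the study's methods, the authors trimmed reads with Trimmomatic 0.39 where needed, aligned them to GRCm39 with STAR, took quality measures with FastQC 0.11.9 and Picard 2.26.2, and deposited RSEM expected counts per gene. The submitters' processing notes also list mm10. TPM values, deposited in the same files by the authors, were used only to compare genes within a population. The kit (SMARTer Stranded Total RNA-Seq Pico v3) marks strand, and the strand setting of the counting is not given in the sources used here. Reads of genes that overlap on opposite strands may therefore not be fully told apart. Among protein-coding genes these were Itsn1 and Atp5po, Synj2 and Serac1, Itsn2 and Fam228a, and Dnm1 with Golga2 and Ciz1.

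Of 57010 gene identifiers, 56310 had a symbol in a Gencode annotation. Expected counts were rounded and tested with edgeR 4.0.16 (quasi-likelihood, two-sided, TMM; R 4.3.3) on genes above 0.1 CPM in at least 10 libraries of a fit (in all, where a fit after leaving out libraries held fewer). The SE is the LFC over the square root of F, and intervals are 95%. Genotype was fitted per population and diet, diet per population over 4 groups, populations per set of mice over 3 populations, and differences between populations per diet over 6 groups. The RNA covariates of the study's model were not used here. The test was checked on simulated data with known changes. DESeq2 1.42.0 and limma-voom (limma 3.58.1), library totals, other filters, all diets in 1 fit, leaving out each library, mice 17-21 and 17-154 together, the label of 15-145-CA3 and a mouse block were the alternatives. Leaving out libraries with CA2 markers above a mean log2 CPM of 5, and that mean as a covariate, were chosen after seeing the data. The CA2 list includes Pcp4, which the study names among the triplicated genes, so that mean is not fully free of genotype.

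The 10 genes, the lists of other genes and the tests were chosen with earlier results of these data known. Named beyond the 10 were, per comparison, up to 2 higher and 2 lower genes of the endocytosis list with the smallest p, given here in part, and the 3 genes of highest r with each triplicated gene among genes above 10 mean CPM. The same animals gave the populations. Deviations from group means over 7647 genes correlated at a median of 0.10 in 78 pairs of libraries of 1 mouse (-0.014 to 0.23) and -0.015 in 480 pairs of different mice. Labels do not say whether mice shared litters.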

Additional observations from a re-analysis of the deposited data

Results flagged for a closer look

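In groups of 4 to 10 libraries, 1 library stood far from the others of its group (Dixon's test at 95%) in 19 of 120 groups, where chance gives about 1 in 20. In CA1 PNs this was Synj1 in the library labelled 2N of mouse 17-154 on the normal diet (1221 CPM, the others 699 to 777). It was also 3 libraries rich in CA2 markers in several genes. Mouse 16-357 (Ts, normal diet) stood apart in Itsn1 (331 CPM), Dnm1 (1764 CPM), Snap91 (443 CPM) and Amph (277 CPM). Mouse 15-336 (2N, supplemented diet) stood apart in Itsn1 (259.98 CPM), Dnm1 (2213 CPM), Snap91 (491 CPM) and Amph (383 CPM), and mouse 17-21 (2N, normal diet) in Snap91 (467 CPM). On the supplemented diet of Ts mice the others were Itsn2 in mouse 15-245 (206 CPM), Sh3gl2 in mouse 16-272 (341 CPM) and Eps15 in mouse 15-199 (514 CPM), of which the last 2 libraries were rich in CA2 markers. How far CA2 content, or the CA3 markers that were also higher in the rich libraries, account for these levels was not tested.

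In CA3 PNs Synj1 stood apart in mouse 17-172 (2N, normal diet, 1202 CPM), Sh3gl2 in mouse 15-145 (2N, normal diet, 673 CPM), Itsn2 in mouse 16-273 (2N, supplemented diet, 153 CPM) and Eps15 in mouse 15-336 (2N, supplemented diet, 231 CPM, below the others). In DGCs of Ts mice on the supplemented diet they were Synj2 in mouse 15-36 (8.14 CPM) and Snap91 in mouse 15-198 (249.99 CPM).

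Of 90 tests of whether a genotype difference differed between populations or between diets, 4, all between populations, had an unadjusted p under 0.05. They were Synj2 on the supplemented diet, for CA1 PNs against DGCs (LFC difference -1.66) and CA3 PNs against DGCs (-1.50), and Amph on the normal diet, for CA1 PNs against CA3 PNs (-0.32) and against DGCs (-0.34). None passed after adjustment over all genes. In the same comparisons 3.22% to 5.51% of all genes were called, and the threshold by itself gives about 1 in 20.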

How the results depend on the processing

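Between Ts and 2N in CA1 PNs on the normal diet, 2 of the 10 genes were called, and 4 when mice 17-21 and 17-154 were left out, when libraries rich in CA2 markers were left out, or with the CA2 marker level as a covariate. For the diet in 2N CA1 PNs the count of 0 became 2 without the CA2-rich libraries, 2 with the covariate and 0 to 2 when each library was left out in turn (2 without mouse 15-336), and for the interaction in CA1 PNs 1 without the CA2-rich libraries. For the diet in Ts CA3 PNs it was 0 to 1 over libraries left out (1 without mouse 17-173 or 16-206), and in 2N DGCs 0 to 1 (1 without mouse 14-125). For the interaction in CA3 PNs it was 1 with library 15-145-CA3 as Ts and 0 to 1 over libraries left out (1 without mouse 15-145), and in DGCs 1 with limma-voom (Synj2, 1.48). For differences between populations on the normal diet, CA1 PNs against CA3 PNs gave 2 with limma-voom and CA1 PNs against DGCs 0 with library totals. No other count moved by over 1.5 times. For libraries or mice left out in turn only counts were compared, not the sign of each LFC. Under the other alternatives no called LFC of the 10 genes changed sign. Of the LFCs refitted under these, 1833 kept direction and side of the threshold, 41 passed it, 8 no longer did and 83 not called changed sign.

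With the mouse as a block, a replicate block over the libraries of the same animal, 7 to 9 genes were called in each comparison of populations and no count moved by over 1.5 times. It changed 4 single calls, given in the report beside their values, and no other. Library totals in place of TMM moved the median of all genes by up to -0.216 in comparisons with DGCs. Itsn2 was then called in CA3 PNs against DGCs in all 4 sets (-0.42 to -0.29) and Picalm in 3 of 4 (-0.40 to -0.24). Synj2 in DGCs rested on 0 to 9 reads per library.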
